A study of Mus musculus with 8 samples.

Results

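The transcripts described here encode enzymes, or subunits of their complexes, of families that add or remove methyl and acetyl groups on histones. They were taken from the gene table by symbol: histone demethylases (Kdm1 to Kdm8), Kmt2 and Setd methyltransferases, histone deacetylases (Hdac), acetyltransferases (Kat), the sirtuins Sirt1 to Sirt7, the Polycomb repressive complex 2 (PRC2) genes Ezh1, Ezh2, Eed and Suz12, and Ehmt1, Ehmt2, Dot1l, Suv39h1 and Suv39h2. Of 25574 rows in the table, 58 matched, 24 of them writers and 34 erasers, and 55 of the 58 had a mean above 0.1 FPKM (fragments per kilobase of transcript, scaled to library size) in at least 1 dataset and were tested. The 3 rows left out were Setd7, Hdac7 and 1 of the 2 rows listed as Hdac4, none of which reached 0.1 FPKM in any library. No row carried a Kmt2 symbol, because the table lists these genes under older names, and 11 such rows are described apart at the end.

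The libraries came from SSP-profiling, a sucrose gradient fractionation for scarce material. Each gradient was loaded with 200 denuded oocytes of 8 weeks old CD1 mice. Oocytes that had undergone nuclear envelope breakdown (NEBD) were selected during a culture of 180 min without inhibitor. They were then held for 10 min in 0.1 mg/mL cycloheximide to keep ribosomes on their mRNAs. RNA of fractions 2–5 was pooled as the non-polysomal (NP) dataset and RNA of fractions 6–10 as the polysomal (P) dataset, with 4 libraries in each. All oocytes therefore shared strain, age, hormone priming, culture and cycloheximide, and the 2 datasets differed only in the part of the gradient. Each library was made from pooled oocytes, depleted of rRNA and amplified as whole cDNA. Because FPKM are scaled within a library, a P/NP ratio compares the share of a transcript in 2 RNA pools and not the fraction of its molecules that carried ribosomes. Each gradient held 200 oocytes, and such bulk samples do not show differences between single oocytes.

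Histone writers and erasers work in opposed pairs. SET-domain enzymes methylate lysines and Kdm proteins remove these groups, whereas Kat enzymes acetylate lysines and Hdac proteins and sirtuins deacetylate them. A fully grown oocyte is transcriptionally silent, so its maturation draws on stored mRNA, and during meiotic maturation histones are broadly deacetylated while the chromosomes condense. In maturing oocytes, many stored mRNAs are recruited to ribosomes through a cytoplasmic polyadenylation element (CPE), a U-rich motif of the 3′UTR that lies close to the poly(A) signal.

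CPE-like motifs were looked for at the annotated 3′ ends, since the comparison between NP and P concerns which stored mRNAs sit on polysomes. The letters TTTTAT or TTTTAAT on the transcript strand were searched within 100 bases before the last AATAAA or ATTAAA of the final 40 bases. GENCODE vM21 transcripts on GRCm38 were used, and the 3′ end that oocytes use was not measured. Among 40 tested members with such a poly(A) signal, 10 held a motif (25%), compared with 1693 of 8219 tested genes (20.6%). Windows of 8 of these 10 are shown, with the CPE-like motif in capitals.
Eed (chr7:89954703-89954732, minus strand): aagctgtgttatTTTTATtgtgatggaaac
Setdb1 (chr3:95323553-95323582, minus strand): gacacagtcatgTTTTATttaacctttaat
Sirt1 (chr10:63319052-63319081, minus strand): acaaaaacagtgTTTTATacttgtatcttg
Suv39h2 (chr2:3455829-3455858, minus strand): gtgggctttttTTTTAATaacagaataaac
Setd1a (chr7:127800076-127800105, plus strand): ccaacaccacatTTTTATaattgtgattaa
Kdm1a (chr4:136550573-136550602, minus strand): tttttgtttttTTTTAATatattttgagaa
Setd2 (chr9:110618565-110618594, plus strand): ttttactgaactTTTTATgtaaaaaataaa
Sirt4 (chr5:115478034-115478063, minus strand): ggcttttttttTTTTAATtattagccaaat
No match to these letters lay before the poly(A) signal of Setd3, Kdm6b and Hdac11, the members whose NP libraries all exceeded their P libraries. Their windows are shown because their libraries did not overlap, with the poly(A) signal in capitals.
Setd3 (chr12:108106437-108106466, minus strand): gtaaaaccccttATTAAAagagaaaccatg
Kdm6b (chr11:69398514-69398543, minus strand): aatattattaaaAATAAAagcaggaaaaaa
Hdac11 (chr6:91174645-91174674, plus strand): aggaccactggaAATAAAgattcaaaattc
The 10 members with a motif had a median log2 fold change of P over NP of −0.18, and the 30 with a poly(A) signal and no motif had a median of −0.71. The values of the 10 ran from −2.17, a member whose window is not shown, to 0.83 (Sirt1), and 3 of the 10 were above 0, as were 4 of the 30. Over all tested genes, the medians were −0.37 with a motif and −0.40 without, with 33% and 28.5% of genes above 0. These are counts of letters in a window and no test was made on them.

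The members were well represented in the oocyte libraries, and the depth differed between them. The number to which a library had been scaled, recovered from the steps between FPKM values, was 1299377 to 7594637 for the NP libraries and 2677946 to 4699328 for the P libraries. The sources used here do not give whether 1 step is a read or a fragment, and the steps of all genes summed to more than this number in every library (5127768 against 3192245 in NP replicate 1). The number therefore gives relative depth only, and the reads named here count such steps. Reads on members ranged from 13067 (NP replicate 2) to 82877 (NP replicate 4). Between 49 and 54 members were above 0.1 FPKM in an NP library and between 41 and 49 in a P library. Of 440 values of tested members, 91 rested on fewer than 10 reads and 46 were 0. All 12 oocyte markers, such as Gdf9 and Zp3, had a mean of at least 123 FPKM and summed to 7181 to 13808 FPKM in NP and 9091 to 39040 FPKM in P. Of 17 granulosa and cumulus cell markers, 4 had a mean above 1 FPKM (Cyp19a1, Nr5a2, Cyp11a1 and Kitl). Cyp19a1 had means of 30 FPKM in NP and 19.7 FPKM in P, Nr5a2 of 24.1 and 13.3 FPKM, and Cyp11a1 of 12.5 and 4.5 FPKM. Another 4, among them Foxl2 and Has2, were listed at 0 in all libraries. The list summed to 15.3 to 142 FPKM in NP and 21.9 to 64 FPKM in P. Of 5 blood and immune markers found, Ptprc, Lyz2 and both haemoglobin genes were listed at 0, and Cd68 reached 35.9 FPKM in NP and was listed at 0 in P. The part of these cells in the values of members was not tested.

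**Figure D1:**
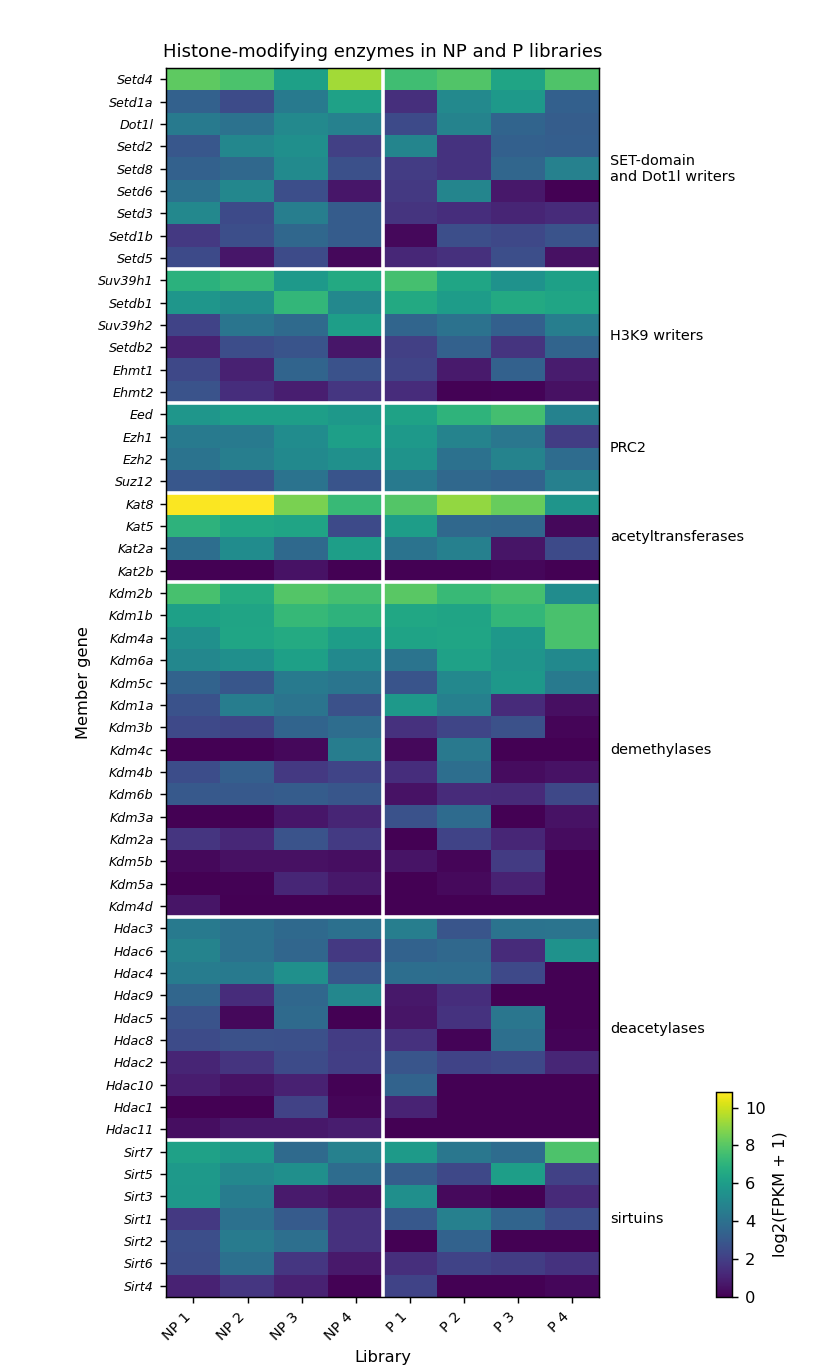
Level of each of the 55 tested members as log2(FPKM + 1), by library (4 NP, then 4 P), in 7 groups of enzymes sorted by mean level. Kat8, Setd4 and Kdm2b are the brightest rows, and several deacetylases and demethylases are near 0 in P replicate 4, which held 41 members above 0.1 FPKM.

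Levels differed by several orders of magnitude between the enzymes. The highest was Kat8 (MOF), which acetylates histone H4, with a mean of 657 FPKM over 8 libraries and rank 99 of 14292 tested genes. It was followed by Setd4 at 241 FPKM, a SET-domain protein, and by the H3K36 demethylase Kdm2b at 176 FPKM and the H3K4 demethylase Kdm1b at 118 FPKM. Suv39h1, Kdm4a, Eed, Setdb1 and Sirt7 were between 59.4 and 102 FPKM. In all, 9 members had a mean above 50 FPKM, 28 above 10 FPKM and 7 below 1 FPKM. Writers had a median of 18.3 FPKM and erasers of 5.41 FPKM, with 5.38 FPKM over all tested genes. The map of levels by library shows that 36 of the 55 were above 0.1 FPKM in all 8 libraries.

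No member passed the test between P and NP. With limma on log2(FPKM + 1) and Benjamini-Hochberg adjustment over all tested genes, 0 of 55 had an adjusted p below 0.1, where 3 of 14292 genes did (0.021%). At an unadjusted p below 0.05, 4 members were higher in NP (Setd3, Hdac9, Hdac11 and Sirt2) and none in P, against 9.47% of all tested genes higher in NP and 0.476% higher in P. All 4 NP libraries lay above all 4 P libraries for 3 members (Setd3, Kdm6b and Hdac11), 5.45% of those tested against 5.92% of all genes, and the reverse held for 0 members against 0.357%. Quantile normalization left 1 member separated with NP above P and gave 2 with P above NP, and centring gave 0 and 8. Both scalings moved all tested genes towards P, with 7296 (quantile) and 3857 (centring) of 14292 below 0. The shares above are without scaling, so these counts cannot be read against them. The mean FPKM was over 2-fold higher in NP for 16 members (29.1% against 40.6% of all genes) and over 2-fold higher in P for 4 members (7.27% against 16.9%). The shares of members with separated libraries and with a low unadjusted p were near the background. The shares past 2-fold were below it in both directions. Members were also higher expressed than most genes, and among genes with a mean above 10 FPKM the 2-fold shares were 24.8% in NP and 13.3% in P, with 14.3% and 3.57% for the 28 members at that level.

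**Figure D2:**
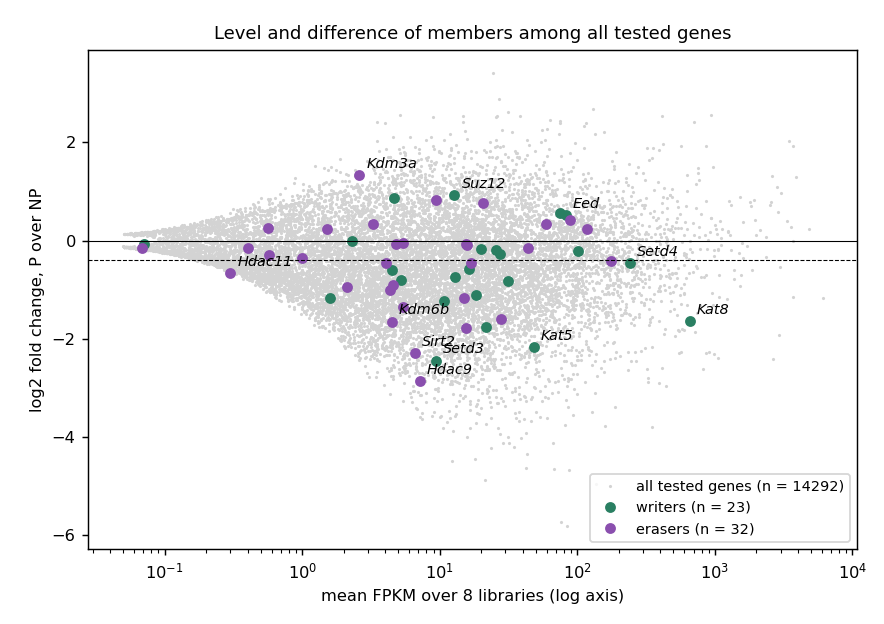
Log2 fold change of P over NP (vertical axis) against mean FPKM over 8 libraries (logarithmic horizontal axis) for 14292 tested genes in grey, 23 writers in green and 32 erasers in purple. The dashed line is the median of all tested genes at −0.39, and the members are spread on both sides of it, from Hdac9 at −2.86 to Kdm3a at 1.32.

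The difference between P and NP leaned to NP across the whole table, with a median log2 fold change of −0.39 over all tested genes. After quantile normalization this median was −0.02 and once all libraries were centred on their medians it was 0.57, so the members are best read relative to it. Of the 55 members, 42 had a log2 fold change below 0 (76.4%), compared with 71.4% of all tested genes, and their median was −0.36. The number of members below 0 was 25 after quantile normalization and 15 after centring, against 7296 and 3857 of 14292 tested genes. Over all 58 rows the median was −0.28. The plot of members among all tested genes shows that they follow the general spread.

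Writers and erasers, grouped by symbol, were compared next. Some of these members act on other proteins, such as Setd3 on actin and Hdac6 on tubulin. Of 23 writers, 19 had a log2 fold change below 0, with a median of −0.58 and a mean of −0.59. Of 32 erasers, 23 were below 0, with a median of −0.23 and a mean of −0.44. Relative to the median of all tested genes, the writers were at −0.19 and the erasers at 0.16. The difference between both medians was −0.35, beside standard errors of single members that reached 1.43 (Sirt3), and it was not tested. It was 0.05 without NP replicate 4, 0.04 without P replicate 2, and 0.43 with a pseudocount of 0.01 in place of 1, so its direction was not stable.

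Median levels of writers and of erasers overlapped between the datasets by library, whereas the median of all tested genes was 2.14 to 2.71 in NP and 1.04 to 2.01 in P. For writers the median log2(FPKM + 1) was 3.90, 4.21, 4.65 and 3.16 in NP replicates 1 to 4 and 3.51, 4.03, 3.46 and 3.24 in P replicates 1 to 4. For erasers it was 2.58, 2.96, 3.13 and 1.95 in NP and 2.44, 2.32, 1.61 and 0.49 in P. The lowest value of both datasets was that of erasers in P replicate 4, where all tested genes also had their lowest median (1.04). Writers exceeded erasers in every library, by 1.32 ± 0.14 in NP and by 1.85 ± 0.69 in P (mean ± SD of the gap in median level, n = 4). This gap was wider in P on average, the opposite sign to the difference between the median fold changes, and its ranges overlapped (1.21 to 1.52 in NP and 1.07 to 2.75 in P).

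**Figure D3:**
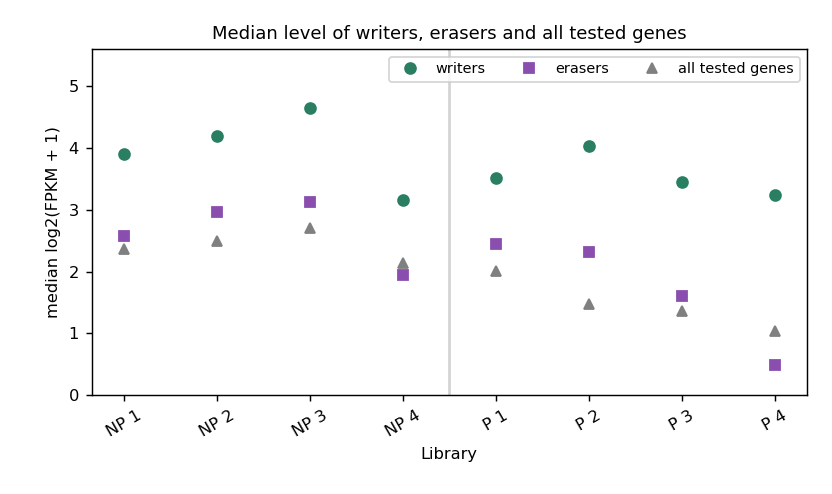
Median log2(FPKM + 1) of 23 writers (circles), 32 erasers (squares) and all tested genes (triangles) in each library. Writers lie above erasers in all 8 libraries, by 1.07 to 2.75, and erasers in P replicate 4 are lowest at 0.49.

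As a sum of FPKM, the writers reached 1900 ± 766 in NP and 959 ± 282 in P, with 1123 FPKM as the lowest NP library and 1271 FPKM as the highest P library (SD, n = 4). Kat8 alone gave 11.5% to 70.1% of the writer sum in NP and 8.3% to 42.8% in P. Without Kat8, the sums were 875 ± 222 and 670 ± 122 FPKM. Erasers summed to 666 ± 105 FPKM in NP and 694 ± 88 FPKM in P. Together the members made up 0.465% ± 0.094 of all FPKM in NP and 0.333% ± 0.097 in P.

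Acetyltransferases were the group with the lowest median fold change, −1.70 over 4 members, with all 4 below 0. After quantile normalization and after centring 3 of the 4 were below 0. Of 14292 tested genes, 10209 (71.4%) were below 0 without scaling, 7296 after quantile normalization and 3857 after centring. Among acetyltransferase rows under older symbols, Csrp2bp was at 0.46, Myst3 at −0.18, Myst2 at −0.44 and Myst4 at −1.93. Kat8 (chr7:127912517-127925832) held 1725, 1816, 403 and 157 FPKM in NP replicates 1 to 4 and 242, 543, 320.1 and 49.6 FPKM in P replicates 1 to 4. The first 2 NP libraries stood far above the other 6, and NP replicate 4 lay below 3 of the P libraries. Its means were 1025 ± 867 FPKM in NP and 289 ± 204 FPKM in P (SD, n = 4), a log2 fold change of −1.64 with a standard error of 0.88 (adjusted p = 0.535). Kat5 (Tip60), the catalytic subunit of the NuA4 complex, was at 127, 87, 80.2 and 4.46 FPKM in NP and 64.8, 11.8, 11 and 0.186 FPKM in P. NP replicate 4 was low, P replicate 1 was high, and the datasets overlapped with a log2 fold change of −2.17 (SE 1.20, adjusted p = 0.541). For Kat8 and Kat5, each NP library exceeded the P library of the same replicate number. The same held for other members, such as Ehmt1, Ehmt2, Hdac4, Setd6 and Sirt2, and the share over all tested genes is not given. With the replicate number as a block, limma gave adjusted p of 0.318 (Kat8) and 0.315 (Kat5). About 12.1% of the exon bases of Kat5 overlap the antisense gene Rnaseh2c, and the library was not stated to keep the strand. Kat2a (GCN5), which acetylates H3K9, was measured at 14, 36.9, 12 and 65.2 FPKM in NP and at 16.2, 25.2, 0.517 and 4.4 FPKM in P. Its paralogue Kat2b was almost absent, with 15 reads in NP replicate 3, 3 reads in P replicate 3 and none elsewhere.

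The 9 tested SET-domain writers outside H3K9, with Dot1l, all had a log2 fold change below 0 and a median of −0.74. This count was 6 of 9 after quantile normalization and 3 of 9 after centring. Of 14292 tested genes, 10209 (71.4%) were below 0 without scaling, 7296 after quantile normalization and 3857 after centring. Among rows of this class under older symbols, Mll3 (1.37), Mll1 (0.55) and Mll5 (0.14) were above 0. Wbp7 (−1.48) and Mll2 (−0.46) were below 0. Setd3 (chr12:108106431-108179314), known as an actin histidine methyltransferase, was one of the 3 members whose libraries did not overlap. It held 32.3, 4.46, 24 and 7.81 FPKM in NP and 2.08, 1.71, 1.16 and 1.55 FPKM in P. Every NP library exceeded every P library, the P values were within 1.16 to 2.08 FPKM, and the NP values ranged from 4.46 to 32.3 FPKM. The mean was 10.6-fold higher in NP (7.46-fold to 13.2-fold when 1 library was left out), and the log2 fold change was −2.44 (SE 0.87, unadjusted p = 0.014, adjusted p = 0.416). Its values rested on 2071 recovered reads in NP and 148 in P.

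Setd4 was the most abundant of these writers, at 281, 214, 69.4 and 640.5 FPKM in NP and 179.6, 232, 78.6 and 229 FPKM in P. NP replicate 4 was highest and replicate 3 lowest in both datasets, and the means of 301 ± 243 and 179.9 ± 71.8 FPKM overlapped in their spread. Setd1a, a catalytic subunit of an H3K4 methyltransferase complex, spread over 4.53 to 72.5 FPKM in the NP libraries and 1.75 to 55.1 FPKM in the P libraries. Gm49388 covers 51.8% of its exon bases on the same strand, so the reads of both cannot be told apart. Setd2, the enzyme that trimethylates H3K36, was at 6.78, 31, 41.3 and 3.1 FPKM in NP and 29, 2.01, 9.05 and 8.43 FPKM in P, with high and low libraries in both datasets. Dot1l, the H3K79 methyltransferase, had 16.1 to 32.7 FPKM in NP and 4.47 to 27.4 FPKM in P, and 3 of its 4 P libraries lay below all NP libraries (log2 fold change −1.11, SE 0.72, adjusted p = 0.602). Setd8, which monomethylates H4K20, had means of 15.3 ± 13.5 FPKM in NP and 10.4 ± 11 FPKM in P. Setd6, Setd1b and Setd5 had log2 fold changes of −1.23, −0.80 and −0.01. Setd7 was at 1 read in each of 2 libraries and 0 in the others.

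H3K9 methyltransferases showed no common direction. Of 6 tested, 4 were below 0 and 2 above, with a median log2 fold change of −0.19, and after quantile normalization 2 of the 6 were below 0 (1 after centring). Suv39h1 was the highest, at 118, 152, 55.7 and 94.1 FPKM in NP and 197, 82.3, 44.5 and 70.1 FPKM in P. P replicate 1 was highest and P replicate 3 lowest, and the NP values lay between them. Its paralogue Suv39h2, the form known from germ cells, was lower at 3.48, 17.5, 12.5 and 66.6 FPKM in NP and 10.4, 15.8, 8.98 and 23.7 FPKM in P. Setdb1, which trimethylates H3K9 at retroelements, held 50.4, 39.9, 143 and 32 FPKM in NP and 94.6, 62.8, 94.1 and 81.1 FPKM in P. All of its P libraries lay within 62.8 to 94.6 FPKM, above 3 of the NP libraries and below NP replicate 3 (log2 fold change 0.56, SE 0.61, adjusted p = 0.713). Setdb2 was low, with means of 3.15 ± 2.79 FPKM in NP and 6.13 ± 4.12 FPKM in P and a log2 fold change of 0.86. The enzymes that dimethylate H3K9 were lowest. Ehmt1 (GLP) had means of 5.29 ± 3.92 and 3.63 ± 4.08 FPKM, and Ehmt2 (G9a) was at 5.76, 1.68, 0.851 and 2.25 FPKM in NP and 1.59, 0.0568, 0.082 and 0.408 FPKM in P. For Ehmt2 only P replicate 1 reached into the NP range, with 241 reads in NP and 50 in P (log2 fold change −1.18, SE 0.63, adjusted p = 0.535).

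PRC2, which trimethylates H3K27, was the writer group with a median log2 fold change above 0 (0.12), and 2 of its 4 genes were below 0, against 1 after quantile normalization and 0 after centring. Eed, the subunit that binds the mark, was the most abundant, at 51.3, 66.3, 66.8 and 53 FPKM in NP and 74.4, 129.8, 191 and 27.3 FPKM in P. The NP libraries were close together, whereas the P libraries ranged from well below to well above them, with means of 59.3 ± 8.35 and 106 ± 70.7 FPKM. Suz12, the scaffold subunit, was at 6.59, 5.6, 16.4 and 5.96 FPKM in NP and 20.5, 11.6, 10 and 25.4 FPKM in P. All P libraries exceeded 3 of the NP libraries, and NP replicate 3 lay among them (log2 fold change 0.93, SE 0.73, adjusted p = 0.65). The 2 catalytic subunits were at similar levels. Ezh2 held 29.3 ± 11.5 FPKM in NP and 25.6 ± 15.1 FPKM in P, and Ezh1 held 36.5 ± 22.5 FPKM in NP and 26.3 ± 22.3 FPKM in P, with its lowest value in P replicate 4 (2.91 FPKM). None of the 4 passed the test.

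Kdm2b, Kdm1b and Kdm4a were the most abundant demethylases. Of 15 tested, 10 had a log2 fold change below 0 and 5 above, with a median of −0.16, and after quantile normalization 5 were below 0 (2 after centring). Kdm2b was at 206, 102, 241 and 198 FPKM in NP and 268, 154, 198 and 37 FPKM in P, with P replicate 4 alone below the other 7 libraries. Kdm1b, required for maternal DNA methylation imprints, was at 70.1, 78.9, 152 and 125 FPKM in NP and 86.8, 78.5, 143 and 207 FPKM in P. The libraries of both datasets covered much the same range, with a log2 fold change of 0.23 and an SE of 0.57 (adjusted p = 0.868). Kdm4a, an H3K9 demethylase of the oocyte, was at 42.7, 80.7, 97.7 and 63.6 FPKM in NP and 75.7, 81.9, 53.8 and 209 FPKM in P, with P replicate 4 far above the others. The H3K27 demethylase Kdm6a had means of 44.5 ± 17.7 FPKM in NP and 42.9 ± 23.1 FPKM in P. Its relative Kdm6b (chr11:69398508-69413675) behaved otherwise, with 7.07, 7.08, 7.84 and 6.36 FPKM in NP and 0.428, 1.53, 1.42 and 4.03 FPKM in P. The NP libraries agreed closely and all lay above the P libraries, at means of 7.09 ± 0.605 and 1.85 ± 1.53 FPKM (log2 fold change −1.65, SE 0.82, adjusted p = 0.522).

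Kdm5c and Kdm1a act on H3K4. Kdm5c was at 10, 6.49, 20.5 and 17.3 FPKM in NP and 5.93, 31.9, 53.1 and 20.5 FPKM in P, with 3 P libraries at or above the highest NP library and P replicate 1 below all of them (log2 fold change 0.76, SE 0.78, adjusted p = 0.702). Kdm1a (LSD1) was at 5.69, 22.9, 17.2 and 5.36 FPKM in NP and 55.8, 25.1, 1.52 and 0.361 FPKM in P, so its P libraries held both the highest and the lowest values, and its mean was higher in P whereas its log2 fold change was −0.47. Kdm3a, an H3K9 demethylase, had the highest log2 fold change of all members, 1.32 (SE 0.82, adjusted p = 0.589). It was at 0, 0, 0.586 and 1.15 FPKM in NP and 5.62, 12.9, 0 and 0.455 FPKM in P, so that 2 P libraries were high and the other 2 lay within the NP range. Kdm3b, Kdm4b and Kdm2a had means below 10 FPKM and log2 fold changes of −1.34, −0.90 and −0.94. For Kdm4c, 1 NP library and 1 P library carried nearly all of the signal, at 23 FPKM (NP replicate 4) and 19.8 FPKM (P replicate 2). Kdm5b, Kdm5a and Kdm4d were below 1 FPKM on average in both datasets, and Kdm4d was represented by 5 reads in NP replicate 1.

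No Hdac gene exceeded a mean of 20 FPKM over the 8 libraries. Of 10 tested, 8 had a log2 fold change below 0, with a median of −0.19, and 5 were below 0 after quantile normalization and 3 after centring. Hdac3 was the most abundant at 20.2, 15.5, 12 and 14.8 FPKM in NP and 23.7, 6.28, 16.5 and 17.2 FPKM in P, with a log2 fold change of −0.08 (SE 0.68, adjusted p = 0.962). Among the other class I enzymes, Hdac2 had means of 2.7 ± 1.45 FPKM in NP and 3.78 ± 2.09 FPKM in P, and Hdac8 had 4.6, 5.41, 5.17 and 2.78 FPKM in NP and 1.93, 0.0645, 14.5 and 0.0772 FPKM in P. The NP libraries of Hdac8 were close together and its P libraries were scattered, with 311 reads in P replicate 3 and 1 read in each of P replicates 2 and 4. Hdac1 was seen in 3 libraries, with 84 reads in NP replicate 3, 3 reads in NP replicate 4 and 18 reads in P replicate 1. The tubulin deacetylase Hdac6 was at 27.9, 15.3, 10.8 and 2.51 FPKM in NP and 9.69, 11.7, 1.55 and 44.2 FPKM in P, with P replicate 4 the highest of all 8 and P replicate 3 the lowest.

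Hdac9, Hdac4 and Hdac5 are class IIa enzymes and Hdac11 is the class IV enzyme. Hdac9 (listed at chr12:34371503-34528889) was at 10.8, 1.57, 11.4 and 31.1 FPKM in NP and 0.626, 1.69, 0 and 0 FPKM in P. This row does not hold the annotated 3′ end of the gene (poly(A) signal window at chr12:34047583-34047612). Its counted length was 4422 bases, where the annotation has 14665 exon bases, so its values cover a part of the gene. P replicate 2 lay just above NP replicate 2, and otherwise the NP values exceeded the P values. The means were 13.7 ± 12.4 and 0.58 ± 0.799 FPKM, 23.7-fold higher in NP, and the log2 fold change of −2.86 was the lowest of all members (SE 0.94, unadjusted p = 0.00869, adjusted p = 0.405). The ratio was 13.7-fold without NP replicate 4 and 65.8-fold without P replicate 2. With limma-voom on the recovered reads (1572 in NP and 37 in P) the adjusted p was 0.0726, the only member called by that fit, which called 212 of 13809 genes (1.54%). Hdac4 was at 22.3, 20.1, 42.3 and 6.52 FPKM in NP and 14.1, 13.7, 4.29 and 0 FPKM in P, with 3 NP libraries above all P libraries and NP replicate 4 among them (log2 fold change −1.77, adjusted p = 0.541). The annotated 3′ end of Hdac4 lies in the Hdac4 row that was left out, which was listed at 0 in all libraries. In P, the signal of Hdac5 came mainly from P replicate 3 (18 FPKM) and that of Hdac10 from P replicate 1 alone (9.82 FPKM), while in NP they reached 12.2 and 1.02 FPKM. Hdac11 (chr6:91156665-91174692) was found at 0.326, 0.6, 0.642 and 0.821 FPKM in NP, from 4, 3, 18 and 24 reads, and was listed at 0 in all P libraries. Taking 3 such steps over the P libraries as the limit that a count of 0 allows, its level was at least 12.7-fold higher in NP, for counting error alone (unadjusted p = 0.0239, adjusted p = 0.441). Overlapping antisense genes cover 17.9% of its exon bases.

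The sirtuins, NAD-dependent deacylases, were 5 below and 2 above 0 among 7 tested, with a median log2 fold change of −0.45, and 3 were below 0 after quantile normalization and 3 after centring. Sirt7, a nuclear and nucleolar deacetylase, was at 71.4, 55.2, 12.3 and 26 FPKM in NP and 58.3, 18.7, 13.1 and 221 FPKM in P, where P replicate 4 set the higher mean. Mitochondrial Sirt5 was at 55.5, 32.1, 41.6 and 13.4 FPKM in NP and 8.25, 4.11, 66 and 3.28 FPKM in P, so 3 P libraries lay below all NP libraries and P replicate 3 above them (log2 fold change −1.60, SE 0.90, adjusted p = 0.547). Sirt3, also mitochondrial, was high in NP replicates 1 and 2 and P replicate 1, at 22.1 to 53.9 FPKM, and at most 1.43 FPKM in the other 5 libraries. Sirt2, a deacetylase of tubulin and of H4K16, was at 5, 21.6, 14.4 and 1.88 FPKM in NP and 0, 9.53, 0 and 0 FPKM in P. In P it was found in replicate 2 alone, with 109 reads, and in NP it was found in all 4 (log2 fold change −2.29, SE 1.05, unadjusted p = 0.046, adjusted p = 0.495). Sirt1, a nuclear deacetylase, was at 2.47, 15.6, 7.63 and 1.8 FPKM in NP and 6.99, 25.3, 10.2 and 4.9 FPKM in P, with overlapping libraries (log2 fold change 0.83, SE 0.88, adjusted p = 0.709). Sirt6 and Sirt4 had means of 5.66 ± 6.4 and 1.08 ± 0.899 FPKM in NP and 2.54 ± 0.795 and 0.904 ± 1.71 FPKM in P.

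**Figure D4:**
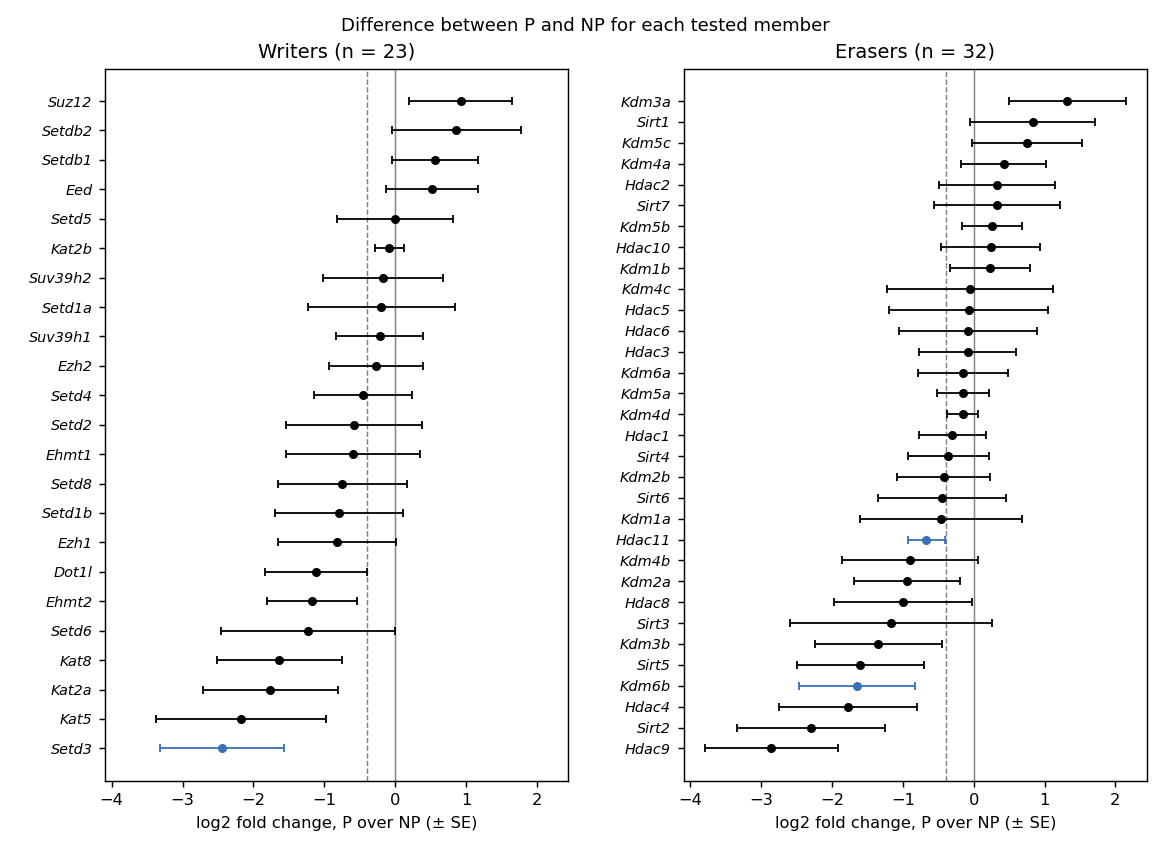
Log2 fold change of P over NP with its limma standard error for 23 writers (left) and 32 erasers (right), on log2(FPKM + 1). Blue marks Setd3, Kdm6b and Hdac11, whose NP libraries all exceeded their P libraries, and the dashed line marks the median of all tested genes at −0.39.

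**Figure D5:**
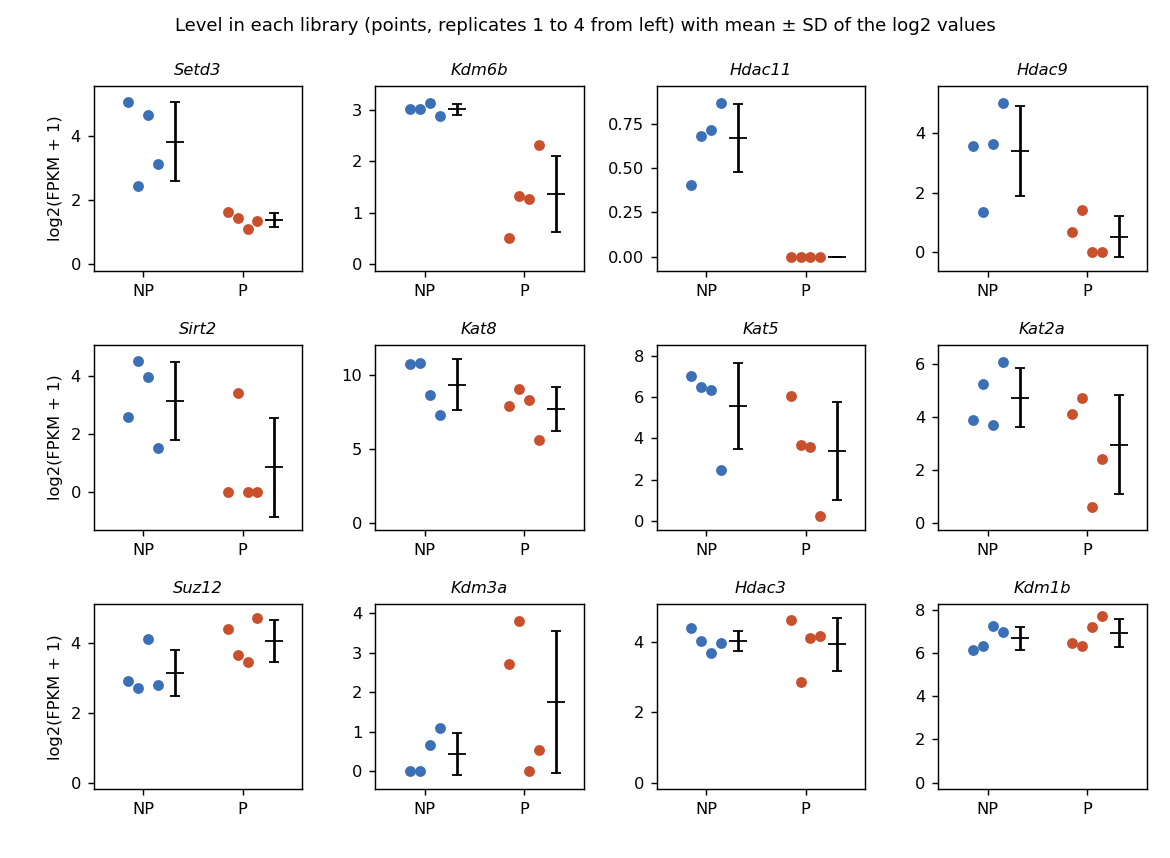
Level as log2(FPKM + 1) in each NP (blue) and P (orange) library for 12 members, with the mean and SD (n = 4) beside the points. Setd3, Kdm6b and Hdac11 do not overlap between datasets, Hdac9 overlaps by 1 library, and Hdac3 and Kdm1b, which overlap, are shown for comparison.

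Transcript length was set beside the differences. Across the 55 members, the counted length and the log2 fold change had a Spearman rho of 0.19, and across 13809 tested genes with a length it was 0.09. The median counted length was 4945 bases for members and 3369 bases for all tested genes. These correlations run across genes of the same 8 libraries, which are not independent replicates.

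Partners of these enzymes and further histone modifiers were read from a separate list. Of 102 rows on that list, such as subunits of the COMPASS, NuA4, NuRD and Sin3 complexes and the Smyd and Prmt families, 97 were tested and 0 passed the adjusted threshold, where 0.021% of all tested genes did. A log2 fold change below 0 was found for 72 of the 97 (74.2% against 71.4% of all tested genes), with a median of −0.38. At an unadjusted p below 0.05, 7 were higher in NP (7.22% against 9.47%) and 0 in P (against 0.476%). Smyd2, a lysine methyltransferase, was lowest, at 42.3, 24.1, 4.65 and 8.14 FPKM in NP and 1.02, 0.115, 0.166 and 0 FPKM in P, so that the libraries did not overlap (log2 fold change −3.60, adjusted p = 0.376). The libraries of 5 rows were separated with NP above P (5.15% against 5.92%), and those of 1 row, Brd1, with P above NP (against 0.357%).

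The 11 rows under older symbols held the Kmt2 family and further Kat and Kdm enzymes. None passed the adjusted threshold, where 0.021% of all tested genes did. Log2 fold changes were below 0 for 5 and above 0 for 6 (45.5% below, against 71.4% of all tested genes). The libraries of 2 were separated with NP above P (18.2% against 5.92%). The mean FPKM was over 2-fold higher in NP for 2 (18.2% against 40.6%) and in P for 4 (36.4% against 16.9%). Wbp7 (Kmt2b), an H3K4 methyltransferase needed in oocytes, was at 58.5, 18.4, 13.2 and 19 FPKM in NP and 6.74, 11.3, 8.49 and 4.90 FPKM in P (log2 fold change −1.48, adjusted p = 0.517). Myst4 (Kat6b) was at 10.6, 8.25, 26 and 33.1 FPKM in NP and 2.43, 4.19, 4.19 and 4.12 FPKM in P (log2 fold change −1.93, adjusted p = 0.45). The other direction was seen for Mll3 (Kmt2c), at 7.23, 9.75, 26.5 and 10.4 FPKM in NP and 19.2, 26.2, 37.9 and 57 FPKM in P (log2 fold change 1.37, adjusted p = 0.524), with NP replicate 3 inside the P range. Mll2 (Kmt2d) had a log2 fold change of −0.46, and Csrp2bp (Kat14), the most abundant of these rows at 181 FPKM, had 0.46. With these rows added, 5 of 66 tested rows were separated with NP above P (7.58% against 5.92%).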

How the data were processed

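RNA-seq libraries of the non-polysomal (NP) and polysomal (P) parts of SSP-profiling gradients were analysed, 4 of each, with groups and replicate numbers taken from the titles. The authors trimmed reads with Trim Galore 0.4.1, checked them with FastQC 0.11.5, aligned them to GRCm38 (HISAT2 2.0.5) and deposited FPKM values, quantified in Seqmonk, of 25574 gene rows. The sources used here do not state whether counting used the strand. The deposited table of expressed genes holds means and ratios, and a further table holds DESeq2 results of the authors, and neither was used.

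FPKM are not counts, so limma 3.58.1 in R 4.3.3 (lmFit, eBayes with trend, 2-sided) was fitted to log2(FPKM + 1) of the 14292 genes with a mean above 0.1 FPKM in at least 1 dataset. P-values were adjusted by Benjamini-Hochberg over these genes and called below 0.1. Ratios were formed from means with 0.0001 added. Fold changes on this log scale understate those of low genes. P-values measure the spread between the libraries, which came from 4 profiles, each pooled into NP and P. The main fit took the libraries as unpaired. Steps between FPKM values gave whole reads, to within 0.01 of a step plus 2e-06 per step, for 14641 of 15585 genes with a value above 0 (93.9%), and for 6978 of them the step was that of the annotated length, while for the others it was taken from the values of the gene itself. Intervals and limits from reads cover counting error only, since amplified cDNA carries no molecular identifiers.

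The members and lists were chosen with earlier results of these data known. Members were named by 4 criteria: the 2 highest means in each of 7 enzyme groups, libraries that did not overlap with a mean above 1 FPKM, the 5 highest and 5 lowest log2 fold changes with a mean above 1 FPKM, and enzymes known from oocytes. This gave 35 genes, and other members are described by role. Smyd2, Brd1 and the rows under older symbols were chosen after their values were seen. Alternatives were other pseudocounts, filters and scalings, a replicate block, leaving out each library, voom on recovered reads and, added after seeing the data, the rows under older symbols and the ratios of Setd3 and Hdac9 without each library. Python 3.11.15, pandas 2.3.3 and matplotlib 3.10.9 were used. No amino acid sequences were used here, and the windows of 2 members with a motif are not reported here.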

Additional observations from a re-analysis of the deposited data

Results flagged for a closer look

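Of 70 groups of 4 libraries examined for named members on log2(FPKM + 1), 5 held a library far from the other 3 by Dixon's criterion. Chance alone flags about 1 in 20 groups of continuous values. That rate does not hold where the other 3 libraries are at 0, as for Sirt2 and Hdac1 in P, since any value above 0 is then flagged. Kat5 was at 4.46 FPKM in NP replicate 4, against 80.2 to 127 FPKM in the other NP libraries. Suz12 was at 16.4 FPKM in NP replicate 3, against 5.6 to 6.59 FPKM. Sirt2 was at 9.53 FPKM in P replicate 2 and was listed at 0 in the other P libraries. Hdac1 was at 3.35 FPKM in NP replicate 3, against 0 to 0.115 FPKM, and at 1.11 FPKM in P replicate 1, with 0 in the other P libraries. No cause of these values was tested.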

How the results depend on the processing

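No alternative except voom called a member, and voom called 1 (Hdac9, log2 fold change −6.01, adjusted p = 0.0726; over the other fits its adjusted p was at least 0.285). Median centring gave 0 members separated with NP above P and 8 with P above NP, 6 over 2-fold higher in NP and 23 in P, and medians of 0.37 for writers and 0.73 for erasers. Quantile normalization gave 1 and 2 separated members, 9 and 15 over 2-fold, and a writer median of −0.0065. The median of all tested genes was 0.57 after centring and −0.02 after quantile normalization. Shares of all genes under these scalings are not given, so the counts do not set the members apart from other genes. With a pseudocount of 0.01 the eraser median was −1.08, writers minus erasers 0.43 and writers minus all genes 0.50. With the rows under older symbols, 5 were separated with NP above P (7.58% against 5.92% of all tested genes). Among members and these rows together, 8 were over 2-fold higher in P (12.1% against 16.9%).

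Leaving out 1 library gave 0 members called, 3 to 8 separated with NP above P (5 without NP replicate 4, P replicate 1 or P replicate 3, 8 without P replicate 2) and 0 to 2 with P above NP (2 without NP replicate 3, 1 without P replicate 1 or 4). It gave 15 to 22 members over 2-fold higher in NP and 4 to 9 in P (7 without NP replicate 2 or P replicate 4, 9 without NP replicate 3). Fewer libraries make separation easier by construction. Shares of all tested genes without each library are not given, so these counts describe the stability of the members only. The writer median ran from −0.83 to −0.29, the eraser median from −0.52 to −0.18, writers minus erasers from −0.59 to 0.05, writers minus all genes from −0.44 to 0.10 and erasers minus all genes from −0.07 to 0.18.

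Of 35 named members, 20 kept their direction in every fit. Under centring, log2 fold changes turned positive for Setd4 (0.50), Ezh2 (0.69), Suv39h2 (0.79), Setd2 (0.37), Kdm1a (0.49), Hdac6 (0.88), Hdac1 (0.66), Kdm2b (0.53), Ezh1 (0.14), Suv39h1 (0.74), Setd1a (0.76) and Hdac3 (0.88), and under quantile normalization for Hdac3 (0.44), Hdac6 (0.48), Ezh2 (0.13), Kdm1a (0.26), Setd1a (0.35) and Suv39h2 (0.36). Kdm5b was at −0.62 with a pseudocount of 0.01 and at −0.35 with voom. Without 1 library, the ranges were −0.31 to 0.28 for Hdac3, −0.80 to 0.51 for Suv39h2, −0.75 to 0.63 for Hdac6, −0.57 to 0.22 for Hdac1, −0.62 to 0.0841 for Suv39h1, −1.02 to 0.0395 for Setd4, −0.45 to 0.87 for Sirt7, −0.16 to 0.47 for Kdm5b, −0.0306 to 0.43 for Kdm1b, −1.38 to 0.41 for Kdm1a, −0.83 to 0.62 for Setd1a and −0.76 to 0.18 for Kdm2b. The cause was not tested.

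The fit with the replicate number as a replicate block called 0 members and 1 gene in all, against 3 without it, and the lowest adjusted p of a member was 0.315 (Kat5). For every P library, deviations correlated best with the NP library of matching number, at 0.139, 0.0518, 0.251 and 0.155 for replicates 1 to 4. NP replicates 1, 3 and 4 likewise had their highest correlation at the matching number. NP replicate 2 correlated best with P replicate 1 (0.136, against 0.0518 with P replicate 2). The other correlations between unmatched numbers ran from −0.135 to 0.0262. Whether a shared number marks 1 gradient was not tested. Low members rested on few reads, with 91 of 440 values on fewer than 10. NP replicate 2 had the lowest recovered number (1299377) and 49 members above 0.1 FPKM. P replicate 4 had 2677946 and 41 members. The part of depth in the low values was not tested.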
